A study of Rattus norvegicus with 4 samples.

Results

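The collagen genes of rat abdominal midline fascia were examined in 4 single-cell RNA libraries made with droplet chemistry that captures the 3′ end of transcripts. Of 30560 gene rows, 42 carried the symbol of a collagen alpha chain. The 29 chains with 50 or more unique molecular identifiers (UMIs, each standing for 1 captured RNA molecule) in total were kept and 13 were set aside. They were 9 fibrillar chains, 5 basement membrane chains, 5 beaded type VI chains, 5 fibril-associated chains with interrupted triple helices (FACIT) and 5 others. At the limit, Col7a1 was kept with 79 UMIs and Col19a1 was set aside with 48. The other 12 set aside held 36 UMIs or fewer each, namely Col28a1, Col6a4, Col4a6, Col10a1, Col9a2, Col26a1, Col22a1, Col24a1, Col25a1, Col23a1, Col2a1 and Col9a1.

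All rats had dysentery induced with Salmonella. By the titles, 2 libraries came from rats then treated with acupuncture and 2 from dysentery rats without it, and no healthy fascia was analysed here. In all 4 cases the treatment entry contradicts the title by giving the other group. Groups here follow the titles, and each sign would turn if the treatment entry were right. Age, sex, strain, time, and whether a library is 1 rat or a pool are not stated in the sources used here, so the spread between libraries may be technical. Cells were freed with collagenase type 4, elastase and DNase I, and dead ones were removed before loading.

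Collagens are built from 3 alpha chains wound into a triple helix, and the set of chains decides the kind of assembly. Types I, III and V form the banded fibrils that carry tension in fascia, type VI forms beaded filaments around cells, and FACIT chains sit on fibril surfaces. Type IV makes the sheet of the basement membrane beneath endothelium and around mural cells, where types XV and XVIII, the multiplexins, are also placed.

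Several chains lie beside another collagen chain in the genome, and the RefSeq rat assembly GRCr8 holds 4 pairs of kept chains as neighbouring coding genes. These are Col4a1 with Col4a2, Col6a1 with Col6a2, Col6a5 with Col6a6, and Col3a1 with Col5a2. Promoter entries were matched by symbol for 23 of the 29 chains. The sequence between the divergent starts of Col4a1 and Col4a2 is shown because both chains form 1 type IV molecule and their ratio is followed below. For Col1a2, the 100 bases farthest from the start within the 250 bases upstream are shown because this stretch holds its motif matches. Both read 5′ to 3′ on the plus strand, from RefSeq GRCr8, with matches to 3 short motifs on either strand in capitals, the CCAAT box, the TATA box TATAAA and the GC box GGGCGG.
Col4a1 and Col4a2, chr16:84885521-84885596: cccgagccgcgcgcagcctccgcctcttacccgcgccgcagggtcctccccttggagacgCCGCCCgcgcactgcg
Col1a2, chr4:33518307-33518406: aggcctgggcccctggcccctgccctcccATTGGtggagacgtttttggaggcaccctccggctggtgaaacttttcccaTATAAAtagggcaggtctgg
The type IV stretch of 76 bases held 1 GGGCGG match, found in 18.1% of 33465 promoters over the 76 bases before the start. The Col1a2 stretch held 1 CCAAT match and 1 TATAAA match, found in 14.5% and 5.43% of promoters over the same stretch. Because the Col1a2 stretch was picked for its matches, its shares do not measure how rare they are. These matches describe letters and are not evidence of binding.

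The 4 libraries held 7965 to 11327 cells and 53066666 to 93897006 UMIs. After filters 32397 of 38282 cells remained, and pairs of libraries shared 14 to 25 cell barcodes. Cells were gated by marker genes, none of them a collagen, which left 2803 to 6140 fibroblast-gated cells per library, 1009 to 3047 macrophage-gated, 165 to 285 T cell-gated, 50 to 191 vascular endothelium-gated and 3 to 19 mural-gated. Dysentery replicate 1 stood apart with 16.01% of its cells above the mitochondrial limit, against 5.11% to 7.17% in the others. Levels are given as CPM, the UMIs of a gene scaled to the gate's total UMIs and expressed per 1000000. Each molecule is counted once at its 3′ end, so levels need no division by transcript length.

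Collagen RNA was concentrated in the fibroblast-gated cells. For 17 of the 29 chains at least 90% of the UMIs in kept cells lay in that gate, among them Col1a1 with 98.9%, Col3a1 with 98.7%, Col14a1 with 98.8% and Col6a1 with 98.4%. The 29 chains together took 4.96% and 7.84% of fibroblast UMIs in the acupuncture libraries, and 4.26% and 3.70% in the dysentery libraries, replicate 1 first here and throughout. The acupuncture libraries were thus higher without overlap, with means of 6.40% ± 2.03 and 3.98% ± 0.393 (SD, n = 2 each). T cells, which should lack these chains, held 0.0318%, 0.0477%, 0.0646% and 0.0301% in the same order. The fibrillar chains made 88.4% to 93.7% of the collagen UMIs of fibroblasts in the 4 libraries.

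**Figure D1:**
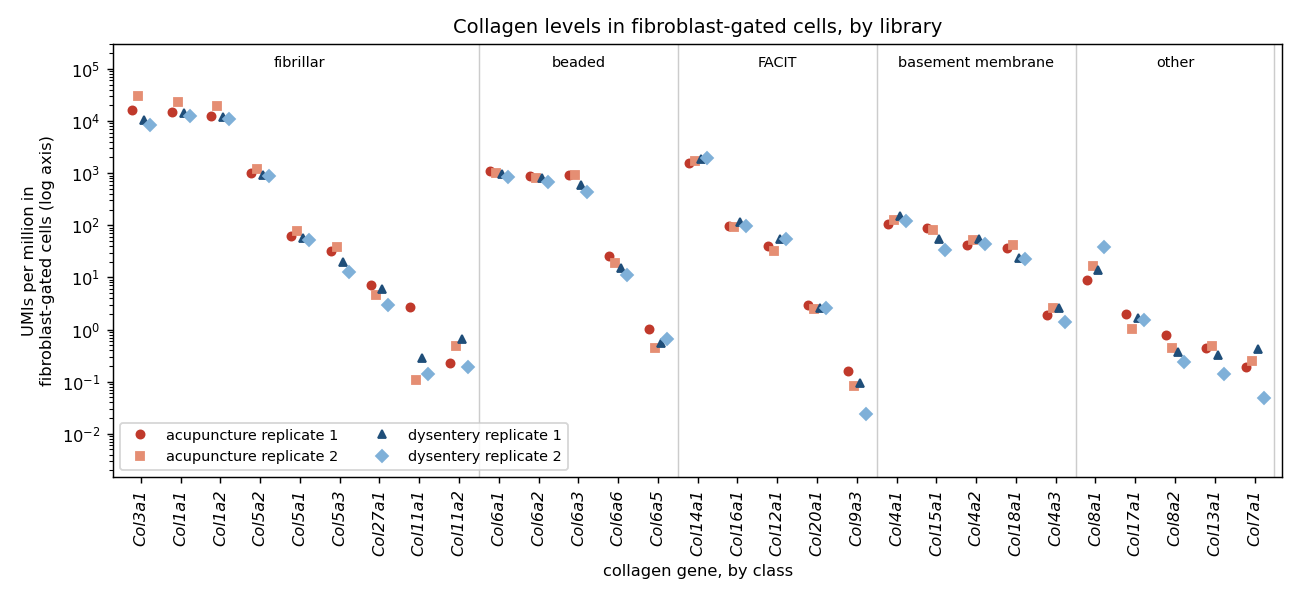
CPM in fibroblast-gated cells on a log axis for the 29 collagen chains, ordered by class, with 1 point per library. The acupuncture libraries sit above both dysentery libraries for Col3a1, Col5a3, Col6a3, Col15a1 and Col18a1, and below them for Col12a1 and Col14a1.

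Between the groups, 26 chains had enough counts for a test in fibroblasts, and Col11a1, Col9a3 and Col7a1 did not. None of the 26 passed an adjusted p of 0.05 in edgeR's quasi-likelihood test, where 2.05% of 13285 genes did. An unadjusted p under 0.05 was reached by 8 of the 26, against 19.7% of all genes. DESeq2 called 6 of the 26, with Col5a3, Col6a3, Col6a6, Col15a1 and Col18a1 higher and Col12a1 lower after acupuncture, against 6.19% of all genes. The same 6 were called by edgeR without the filter on low counts, out of 29 chains and against 3.45% of 18936 genes. The median log2 difference was 0.30 over the 26 chains and -0.01 over all genes. In 17 of the 26 (65.4%) the libraries of the groups did not overlap, 14 higher and 3 lower after acupuncture. Of all genes 48.6% did not overlap either, a share to set beside each fibroblast chain described below as not overlapping. With 2 libraries a group, a seeded simulation on these fibroblast sums recovered 54 of 100 genes changed 2-fold and 100 of 100 changed 4-fold. It gave every gene the same spread between libraries, so it does not describe recovery for chains whose libraries spread more.

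**Figure D2:**
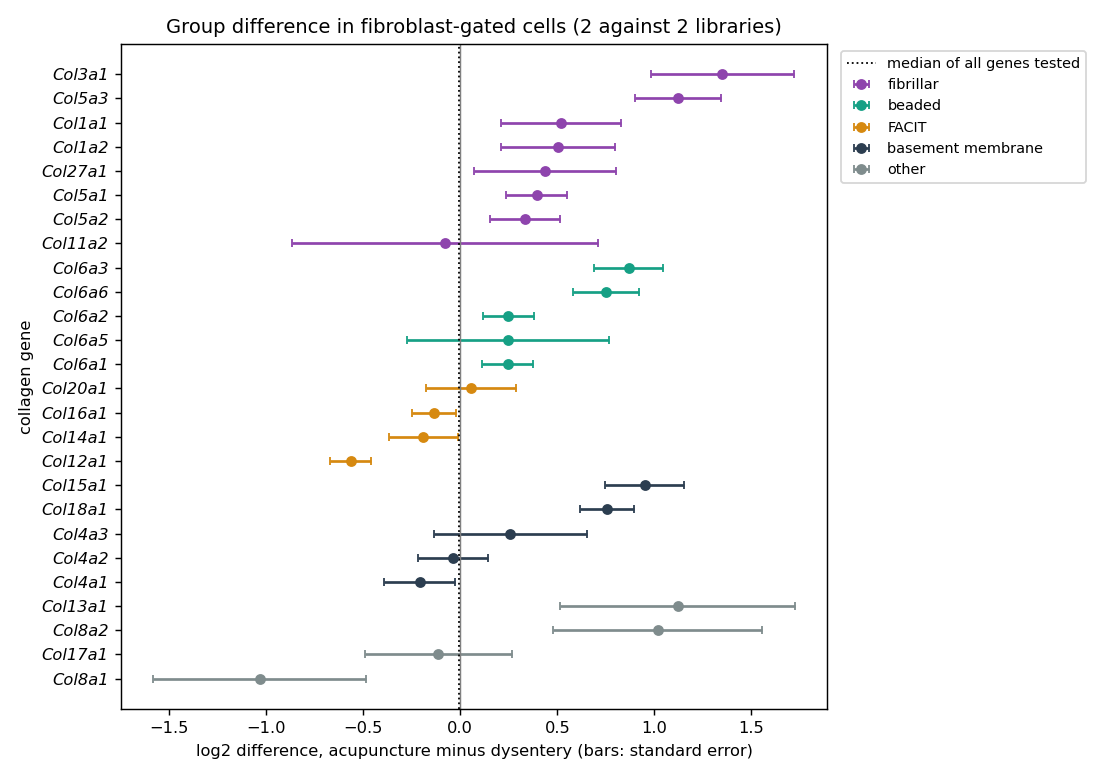
Log2 difference between acupuncture and dysentery libraries with its standard error for the 26 tested chains in fibroblast-gated cells, coloured by class, the dotted line marking the median of all genes. Col3a1 at 1.35 lies farthest right, Col8a1 at -1.03 lies farthest left, and the 5 beaded chains are all to the right of 0.

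Among the fibrillar chains, Col3a1, the chain of the type III homotrimer found in compliant tissues and early repair, had the largest fibroblast difference. Its level was 16412 and 29806 CPM in the acupuncture libraries and 10327 and 8356 CPM in the dysentery libraries. Both acupuncture values were above both dysentery values, and replicate 2 was the highest. The log2 difference was 1.35 ± 0.37 (SE, edgeR adjusted p = 0.143). Col1a1, which encodes the alpha-1 chain of type I collagen, held 14587 and 23004 CPM against 14474 and 12404 CPM. Acupuncture replicate 1 was thus level with dysentery replicate 1, and the log2 difference of 0.52 ± 0.31 had an edgeR adjusted p of 0.405. Col1a2, its partner, held 12661 and 19343 CPM against 12127 and 11034 CPM, with a log2 difference of 0.50 ± 0.29 (edgeR adjusted p = 0.398). For all 3 chains, acupuncture replicate 2 was the highest library. Without it the log2 differences were 0.76 for Col3a1, 0.06 for Col1a1 and 0.07 for Col1a2, and that of Col5a3 was 0.91.

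The type V chains, which start and size type I fibrils, were lower in level. Col5a2 held 991 and 1198 CPM against 904 and 865 CPM, a log2 difference of 0.33 ± 0.18 (edgeR adjusted p = 0.366). Col5a1 held 63.3 and 76.6 CPM against 57.2 and 51.3 CPM, a log2 difference of 0.39 ± 0.16 (edgeR adjusted p = 0.25). Col5a3, the remaining type V chain, held 31.9 and 37.5 CPM against 19.8 and 12.96 CPM. None of these 3 chains overlapped between the groups, and 48.6% of all genes did not overlap either. The difference for Col5a3 was 2.18-fold, or 1.12 ± 0.22 in log2, with an edgeR adjusted p of 0.078. DESeq2 gave 1.11 with an adjusted p of 0.000327, and edgeR with the replicate number as a block gave an adjusted p of 0.091. With 1 library left out, the edgeR log2 difference was 0.87 to 1.40. Of the remaining fibrillar chains, Col27a1 held 7.29 and 4.56 CPM against 6.06 and 2.91 CPM, and Col11a2 stayed under 1 CPM in each library.

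Among the beaded chains of type VI, Col6a1 and Col6a2 had similar log2 differences, and those of Col6a3 and Col6a6 were larger. Whether the chains differ in their group difference was not tested. Col6a1 held 1108 and 1002 CPM after acupuncture and 959 and 842 CPM in dysentery, with a log2 difference of 0.24 ± 0.13 (edgeR adjusted p = 0.359). Col6a2 held 889 and 817 CPM against 790.1 and 664 CPM, with 0.25 ± 0.13 in log2 (edgeR adjusted p = 0.361). Both chains were slightly higher in the acupuncture libraries without overlap. Col6a3, the long chain of the type VI trimer, held 908 and 925 CPM against 594 and 427 CPM. Its difference was 1.82-fold, 0.87 ± 0.18 in log2, with an edgeR adjusted p of 0.0834 and a DESeq2 adjusted p of 3.74e-05. Col6a6, which can stand in for Col6a3, held 25.5 and 19.0 CPM against 15.4 and 11.3 CPM, with 0.75 ± 0.17 in log2 (edgeR adjusted p = 0.101). Col6a5 was near 1 CPM or below in each library.

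Of the 4 tested FACIT chains, 3 had a negative log2 difference and Col20a1 was at 0.06 ± 0.23, and none passed the edgeR threshold. Col14a1, which binds fibrils through decorin, was the most abundant chain outside the fibrillar class in each library, with 1536 and 1734 CPM after acupuncture and 1833 and 1948 CPM in dysentery. It was lower after acupuncture without overlap, by a log2 difference of -0.19 ± 0.18 (edgeR adjusted p = 0.598). Col12a1, a fibril-surface chain of dense connective tissue, held 40.0 and 32.4 CPM against 53.4 and 54.1 CPM. Its log2 difference was -0.56 ± 0.11 (edgeR adjusted p = 0.0702, DESeq2 adjusted p = 0.00552). The edgeR adjusted p was 0.0389 with no low-count filter. It was 0.0289 where a cell had to lead the next gate by 0.4 in its share of markers detected, in place of 0.2. It was 0.0818 with doublets kept, 0.0682 with a mitochondrial limit of 10% and 0.0699 with the replicate number as a block. With 1 library left out, the log2 difference was -0.64 to -0.49. Col16a1 held 95.3 and 93.8 CPM against 114.8 and 95.8 CPM, with -0.13 ± 0.11 in log2 (edgeR adjusted p = 0.557).

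The basement membrane class holds 2 multiplexins and 3 type IV chains, none past the edgeR threshold. Col15a1, which links basement membranes to the fibrils beneath, held 88.3 and 80.5 CPM after acupuncture against 55.1 and 34.0 CPM, with 0.95 ± 0.20 in log2 (edgeR adjusted p = 0.0889). Col18a1, the parent chain of endostatin, held 36.8 and 41.3 CPM against 24.0 and 23.0 CPM, with 0.76 ± 0.14 in log2 (edgeR adjusted p = 0.0678). Neither multiplexin overlapped between the groups. Col4a1 held 104 and 128 CPM against 153 and 121 CPM, and Col4a2 held 41.4 and 51.0 CPM against 54.1 and 42.8 CPM. These 2 type IV chains overlapped, with log2 differences of -0.21 ± 0.18 and -0.04 ± 0.18, and the sign of each depended on which library was left out. Col4a3, the remaining type IV chain, held 1.94 and 2.61 CPM against 2.58 and 1.38 CPM, with 0.26 ± 0.39 in log2 (edgeR adjusted p = 0.762). Whether the multiplexins differ from type IV in their group difference was not tested.

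Of the remaining chains, Col8a1, a short network-forming chain of vessel walls and Descemet's membrane, held 9.01 and 16.2 CPM against 13.8 and 38.1 CPM. Dysentery replicate 2 alone was high, and the log2 difference of -1.03 ± 0.55 had an edgeR adjusted p of 0.357. The partner chain Col8a2 held 0.775 and 0.435 CPM against 0.376 and 0.239 CPM. Col13a1, a membrane-bound chain, held 0.452 and 0.489 CPM against 0.329 and 0.143 CPM. Both rested on 24 UMIs or fewer per library, with log2 differences of 1.02 ± 0.54 and 1.12 ± 0.60 and edgeR adjusted p values of 0.357 and 0.365. Col17a1, a membrane-spanning chain of the hemidesmosome, held 1.97 and 1.00 CPM against 1.64 and 1.55 CPM, with -0.11 ± 0.38 in log2 (edgeR adjusted p = 0.895).

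The fibroblast sums also carried markers of other cells that differed with the group. The 8 tenocyte markers summed to 30.3 and 25.4 CPM after acupuncture against 6.197 and 2.89 CPM, with 7 of 8 higher by mean. The 8 neutrophil markers summed to 193 and 161 CPM against 495 and 490 CPM, with 2 of 8 higher after acupuncture. The 8 macrophage markers summed to 113 and 94.2 CPM against 84.8 and 47.9 CPM, with 6 of 8 higher after acupuncture. No marker of these 3 lists was at 0 over the 4 libraries, and their part in the collagen differences was not tested. Among fibroblasts with 2 or more UMIs of Postn and none of Cd34, 1508 to 3570 cells per library, 4 of 23 tested chains passed the edgeR test, against 3.08% of genes (2.13% higher and 0.942% lower). In that comparison, added after the data were seen, Col15a1 rose by 1.43 ± 0.19, Col5a3 by 1.30 ± 0.21 and Col18a1 by 0.90 ± 0.14 in log2, with adjusted p values of 0.0193, 0.0309 and 0.0296. Col12a1 fell by 0.75 ± 0.13 with an adjusted p of 0.0345.

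Ratios between chains in fibroblasts compare molecules within a library, so the scaling to the total drops out. The type I ratio Col1a1 to Col1a2 was 1.15 and 1.19 after acupuncture and 1.19 and 1.12 in dysentery. The type VI ratio Col6a1 to Col6a2 was 1.246 and 1.23 against 1.21 and 1.27. The type V ratio Col5a1 to Col5a2 was 0.0639 and 0.0640 against 0.0632 and 0.0593. The highest library was 1.06, 1.04 and 1.08 times the lowest for these 3 pairs, across libraries whose Col1a1 level spanned 12404 to 23004 CPM.

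The Col5a1 to Col5a2 values, and those of the other 3 ratios, did not overlap between the groups. Among single genes tested in fibroblasts 48.6% did not overlap either, and no share was computed for other pairs of genes. For Col5a1 to Col5a2 the 95% exact binomial intervals did overlap, with 0.0610 to 0.0669 in acupuncture replicate 1 and 0.0596 to 0.0670 in dysentery replicate 1. Col3a1 to Col1a1 was 1.13 and 1.30 after acupuncture and 0.713 and 0.674 in dysentery, means of 1.21 ± 0.121 and 0.694 ± 0.0282 (SD, n = 2 each). Col3a1 UMIs thus exceeded Col1a1 UMIs in both acupuncture libraries and were below them in both dysentery libraries. Whether both genes are captured equally well was not tested. Col6a3 to Col6a2 was 1.02 and 1.13 against 0.752 and 0.643, means of 1.08 ± 0.0786 and 0.698 ± 0.0774. Col4a1 to Col4a2 was 2.51 and 2.51 against 2.83 and 2.83. Counting error alone gave 95% exact binomial intervals of 2.35 to 2.68 and 2.38 to 2.65 for the acupuncture libraries and 2.64 to 3.02 and 2.68 to 2.99 for the dysentery libraries. The ratios were not tested.

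**Figure D3:**
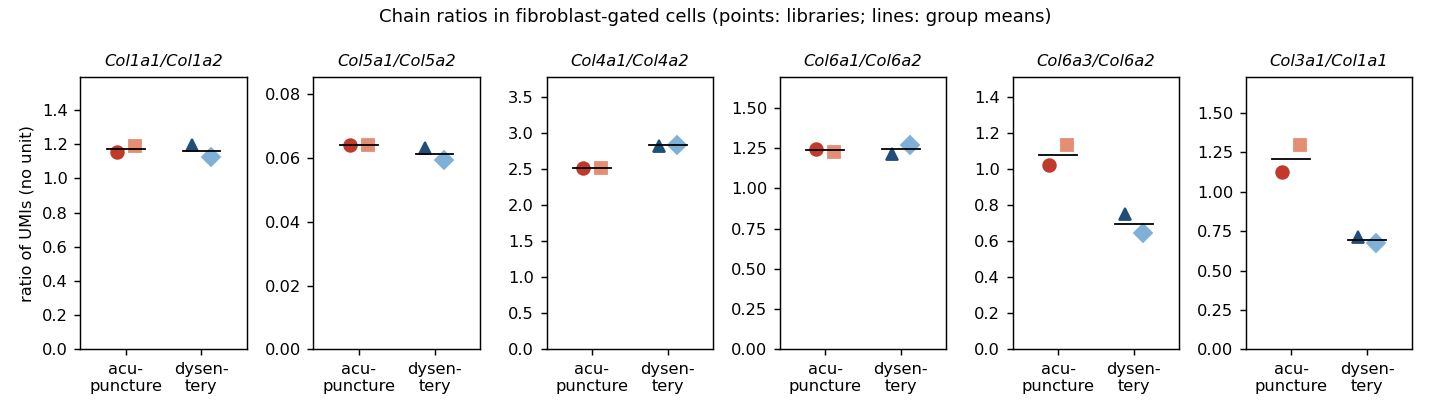
Ratio of summed UMIs of 2 chains in fibroblast-gated cells, with 1 point per library, circles and squares for acupuncture replicates 1 and 2, triangles and diamonds for dysentery replicates 1 and 2, and a line at each group mean. The group means are 1.21 and 0.694 for Col3a1 to Col1a1 and 1.17 and 1.16 for Col1a1 to Col1a2.

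In vascular endothelium, 21 of 23 tested chains differed from fibroblasts of the same libraries by edgeR, 5 higher and 16 lower, against 17.3% and 24.4% of 12915 genes. The 5 higher chains were 4 of the basement membrane class and Col13a1. Col15a1 held 552, 442, 306 and 369 CPM, the acupuncture libraries first, which was above fibroblasts in each library. Its log2 difference was 2.45 ± 0.17 (edgeR adjusted p = 5.58e-09). Col4a1 held 692, 344, 329 and 284 CPM, with 1.34 ± 0.22 in log2 (edgeR adjusted p = 9.28e-05). Col4a2 held 245, 143, 105 and 88.4 CPM, with 1.28 ± 0.22 in log2 (edgeR adjusted p = 0.000156). Col18a1 held 191, 236, 84.6 and 102 CPM, with 1.957 ± 0.15 in log2 (edgeR adjusted p = 1.34e-08). Each of these 3 was also above its fibroblast level in each library. Col13a1 held 26.0, 3.82, 29.2 and 27.7 CPM from 48 UMIs in all, with 5.48 ± 0.67 in log2 (edgeR adjusted p = 4.6e-06).

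The interstitial chains of endothelium were far below fibroblasts. Col1a1 held 69.3, 120.3, 160.4 and 113 CPM, with a log2 difference of -7.46 ± 0.21 (edgeR adjusted p = 6.45e-14). Col1a2 lay at 75.1, 102, 128 and 127 CPM (-7.31 ± 0.20 in log2, edgeR adjusted p = 6.84e-14), and Col14a1 at 12.99, 7.63, 14.6 and 24.3 CPM (-7.28 ± 0.22 in log2, edgeR adjusted p = 1.53e-13). Col4a3 and Col17a1 had 0 UMIs in endothelium and were at least 1.82-fold and 1.34-fold lower than in fibroblasts, against a floor of 3 counts over the 4 libraries. Col1a1 in T cells of the same libraries was 85.6, 116, 190 and 68.0 CPM, a range that holds all 4 endothelial values. In an added comparison of endothelium with T cells, 8 of 13 tested chains were higher, against 29.0% of 8961 genes, and none of the 13 was lower, against 26.7% (55.7% in all). Col15a1, Col4a1, Col4a2 and Col18a1 were higher by 8.601 ± 0.29, 8.88 ± 0.34, 9.40 ± 0.40 and 7.94 ± 0.35 in log2. Col1a1 was at -0.14 ± 0.18 and Col3a1 at -0.03 ± 0.16, with edgeR adjusted p values of 0.545 and 0.904. The other chains past the threshold were Col13a1, with 0 UMIs in T cells, and Col5a2, Col6a1 and Col6a2, higher by 0.99 ± 0.32, 1.03 ± 0.37 and 1.17 ± 0.46. Col1a2, Col6a3 and Col14a1 did not pass.

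Between the groups, 1 of 10 tested chains in endothelium passed, against 0.813% of 6517 genes. Col18a1 rose in the acupuncture libraries, from 84.6 and 102 CPM to 191 and 236 CPM, by 1.08 ± 0.22 in log2 (edgeR adjusted p = 0.0442). The adjusted p was 0.0975 with DESeq2, 0.26 and 0.273 without dysentery replicates 1 and 2, and 0.0623 without acupuncture replicate 2. Col4a2 had a log2 difference of 0.91 ± 0.27 and Col4a1 of 0.65 ± 0.28, with edgeR adjusted p values of 0.174 and 0.34. With 1 library left out, the log2 difference was 0.50 to 1.27 for Col4a2 and 0.09 to 1.08 for Col4a1. Both highest values came without acupuncture replicate 2, and the lowest for Col4a1 came without acupuncture replicate 1. Col15a1 had a log2 difference of 0.45 ± 0.20 (edgeR adjusted p = 0.344).

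Tested as the difference between the group differences of endothelium and fibroblasts, 2 of 23 chains passed, both lower, against 1.52% of 12915 genes (0.736% higher and 0.782% lower). They were Col1a1 and Col1a2, each at -1.06 ± 0.18 in log2 (edgeR adjusted p = 0.000103 and 0.000145). Their endothelial levels were near those of T cells, whose part in this difference was not tested.

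Other features of the endothelial sums moved with the group. The median cell held 2854 and 4087 UMIs in the acupuncture libraries and 6792 and 6532.5 in the dysentery libraries. The 8 mural markers summed to 199 and 76.3 CPM against 20.4 and 43.3 CPM, with 8 of 8 higher after acupuncture, and 7 of 8 macrophage markers were higher, at 159 and 111 CPM against 37.9 and 34.7 CPM. The 8 lymphatic markers summed to 50.5 and 268 CPM against 5.83 and 1.73 CPM, with Stab2 and Nts at 0. Neutrophil markers stood at 3379.5 CPM in dysentery replicate 1 and at 45.1 to 83.7 CPM in the others. The part of these features in the Col18a1 and type IV differences was not tested.

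Mural cells wrap vessels as pericytes or smooth muscle. They could be compared with fibroblasts only in the acupuncture libraries, with 19 and 16 cells. Of 23 chains, 4 were higher and 11 lower by edgeR, against 6.50% and 11.7% of 12040 genes. Col4a1 held 504 and 1286 CPM, Col4a2 269 and 431 CPM, and Col18a1 420 and 219 CPM. Their log2 differences were 2.31 ± 0.23, 2.37 ± 0.26 and 2.47 ± 0.27, with edgeR adjusted p values of 3.88e-22, 2.42e-18 and 2.3e-18. Col5a3 held 109 and 95.0 CPM, with 1.012 ± 0.37 in log2 (edgeR adjusted p = 0.0362, DESeq2 adjusted p = 0.242). Among the lower chains, Col1a1 was at -7.71 ± 0.31, Col1a2 at -5.97 ± 0.28 and Col3a1 at -5.19 ± 0.26 in log2, with edgeR adjusted p values of 8.15e-127, 2.16e-99 and 4.94e-84. Since only the acupuncture libraries entered this fit, the size of its p values is a poor measure of the spread between libraries.

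The ratio of Col1a1 to Col1a2 in mural cells was 0.361 and 0.350 in the acupuncture libraries, from 13 and 21 UMIs of Col1a1, against 1.15 and 1.19 in fibroblasts of the same libraries. In the dysentery libraries it was 0.625, from 5 and 8 UMIs, and 1.25, from 5 and 4 UMIs, with 95% exact binomial intervals of 0.161 to 2.17 and 0.269 to 6.30 that hold the fibroblast ratios of 1.19 and 1.12. Col15a1, abundant in endothelium, had 0 UMIs in the mural cells of all 4 libraries. Against a floor of 3 counts over the acupuncture libraries it was at least 7.17-fold lower than in fibroblasts, and Col16a1, also at 0, at least 8.06-fold lower. Type VI remained present, with Col6a3 at 529 and 570 CPM. The mural sums held 823 and 504 CPM of the 8 fibroblast markers in the acupuncture libraries, with Pdgfra and Fbln1 at 0, and 2746 CPM of neutrophil markers in acupuncture replicate 1. The 3 and 5 mural cells of the dysentery libraries were not tested alone. With all 4 libraries, an addition made after the data were seen, 5 of 23 chains were higher and 11 lower, against 22.1% of 12115 genes in all.

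**Figure D4:**
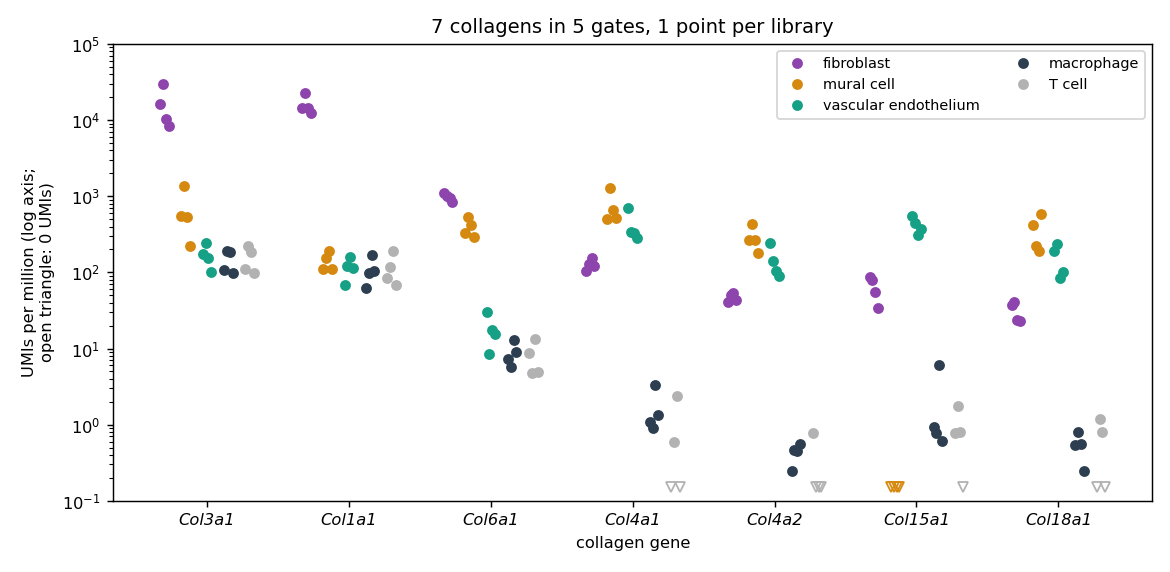
CPM on a log axis for 7 collagens in 5 gates, 1 point per library, with open triangles at the bottom for 0 UMIs. Fibroblasts lead for Col3a1, Col1a1 and Col6a1, whereas mural cells or endothelium lead for Col4a1, Col4a2 and Col18a1, and Col15a1 is at 0 UMIs in mural cells.

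In macrophages the abundant chains were near the T-cell level. Col3a1 held 106, 191, 186 and 98.9 CPM in macrophages, acupuncture libraries first, and 112, 221, 186 and 99.6 CPM in T cells. Col1a1 held 62.7, 99.6, 168 and 104 CPM against the T-cell values given above. For Col3a1 the 4 libraries had the same order in both gates, for Col1a1 they did not, and the log2 differences were 0.09 ± 0.12 for Col3a1 and 0.09 ± 0.17 for Col1a1 (edgeR adjusted p = 0.542 and 0.684). Macrophage Col1a1 was 0.430% to 1.16% of the fibroblast level.

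Of 13 chains tested between macrophages and T cells, 1 was higher and 1 lower by edgeR, against 30.4% and 24.5% (54.9% in all) of 11442 genes. Col17a1 was higher in macrophages, with 2.67, 2.97, 2.91 and 5.66 CPM against 0.785, 0.59, 0.793 and 0.986 CPM, a log2 difference of 2.33 ± 0.53 (edgeR adjusted p = 0.00336). Its macrophage level was above that of fibroblasts in each library, and 41.0% of all Col17a1 UMIs in kept cells lay in macrophages. Col27a1 was lower, at 0.34, 0.681, 0.336 and 0.369 CPM against 3.14, 3.54, 1.59 and 0 CPM, a log2 difference of -2.13 ± 0.70 (edgeR adjusted p = 0.0237). The T-cell values rested on 4 and 12 UMIs in all. Next in size and not past the threshold were Col4a1 at 1.32 ± 0.76 and Col20a1 at 0.50 ± 0.52 on the higher side, and Col16a1 at -0.69 ± 0.57 and Col6a3 at -0.32 ± 0.26 on the lower.

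Between the groups, 1 of 15 chains tested in macrophages passed, against 11.2% of 11994 genes (7.45% higher and 3.79% lower). Col14a1 fell after acupuncture, with 8.02 and 8.88 CPM against 28.4 and 15.6 CPM, a log2 difference of -1.30 ± 0.27 (edgeR adjusted p = 0.0397). T cells of the same libraries held 5.50 and 10.0 CPM against 26.2 and 12.8 CPM, the same order of groups. Without acupuncture replicate 1 or 2 the adjusted p was 0.194 or 0.169. Between macrophages and T cells, Col14a1 had a log2 difference of 0.32 ± 0.20 (edgeR adjusted p = 0.214), and the part of RNA shared by all gates in the group difference was not tested.

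**Figure D5:**
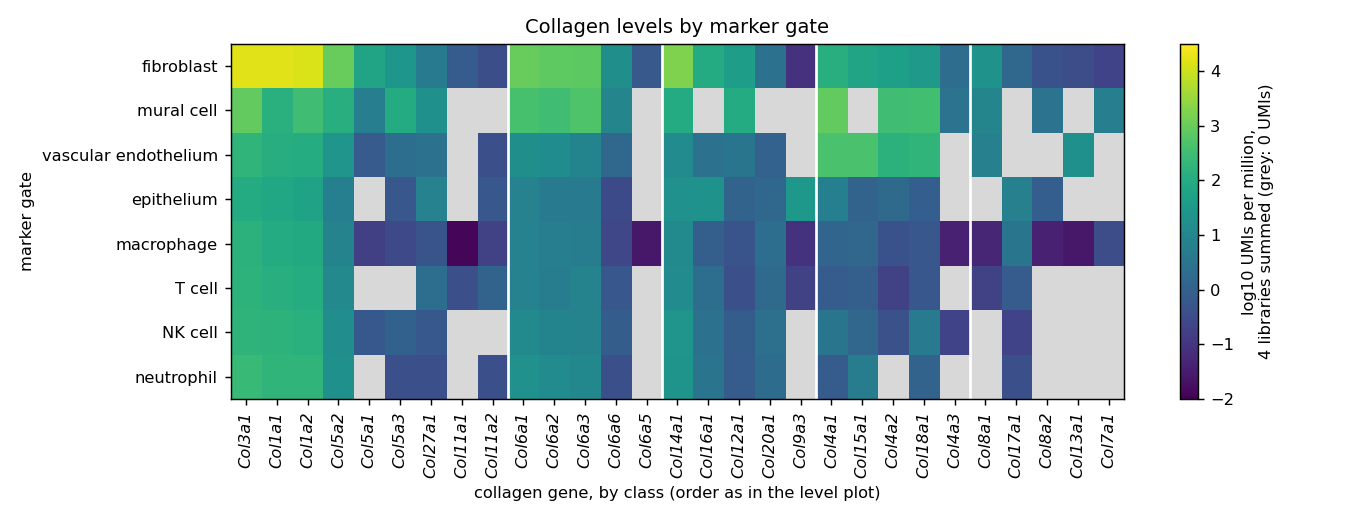
Log10 of CPM with the 4 libraries summed, for 8 marker gates and 29 collagen chains ordered by class, with grey for 0 UMIs. Of the gates drawn, fibroblasts are highest for Col1a1, Col1a2, Col3a1 and Col6a1 to Col6a3, vascular endothelium for Col15a1 and Col13a1, mural cells for Col4a1, Col4a2 and Col18a1, and epithelium for Col9a3.

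The rarest chains were counted by the cells that held their UMIs. Col9a3, known as a cartilage chain of type IX, had 101 of its 140 UMIs in 11 to 83 epithelium-gated cells per library, at 20.9, 45.0, 35.6 and 22.9 CPM, against 0.161 CPM or less in fibroblasts. Col11a1, a chain of cartilage fibrils, had 109 UMIs in 40 cells, of which 10 cells held 60.6%. Acupuncture replicate 1 contributed 92 of them, with 25 in 1 cell. Col20a1 was at similar low levels in fibroblasts, macrophages and T cells, with 2.63, 2.20 and 1.72 CPM over the 4 libraries. Col7a1, the chain of anchoring fibrils, had 27 of its 69 UMIs in macrophages and 26 in fibroblasts.

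Fibroblasts differed among themselves in some basement membrane chains. Cells with 3 or more UMIs of Myoc, a subset chosen after its values were seen, held Col15a1 at 287, 471, 219 and 228 CPM, acupuncture libraries first. Cells with 3 or more UMIs of Pi16, a marker of adventitial fibroblasts, held 16.4, 4.58, 7.21 and 4.15 CPM. The 2 subsets shared 511 cells. Col4a1 was likewise at 231, 460.0, 376 and 383 CPM in the Myoc subset and at 48.2, 60.3, 97.1 and 80.7 CPM in the Pi16 subset. Col1a1 differed less, at 15392, 15541, 13080 and 15662 CPM against 14406, 24099.8, 14154 and 11761 CPM. The basement membrane chain Col18a1 was near level except in acupuncture replicate 2. It held 33.3, 78.1, 23.2 and 23.0 CPM in the Myoc subset and 33.3, 35.8, 21.4 and 23.0 CPM in the Pi16 subset.

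The Myoc subset was a larger part of fibroblasts after acupuncture, with 13.4% and 11.3% against 6.78% and 4.61%. A fixed cut of 3 UMIs is met more readily by deeper cells. Over all kept cells the median was 7463 and 9167 UMIs after acupuncture against 6643 and 6834, and the part of depth in this share was not tested. Within the Pi16 subset, Col15a1 overlapped between the groups, and within the Myoc subset it did not. The part of the subset's share in the Col15a1 difference of all fibroblasts was not tested. Col3a1 in the Pi16 subset was 15774 and 30561 CPM against 9929 and 7746 CPM, and in the Myoc subset 17618 and 23543 CPM against 9925 and 11578.5 CPM, so both acupuncture libraries stayed above both dysentery libraries in each. Cells with 3 or more UMIs of Ptgs2, the enzyme named in the title of the study, held Col3a1 at 14346 and 30478 CPM against 7497 and 6566 CPM. Col1a1 in them was 12348 and 23180 CPM against 10632 and 10121.5 CPM.

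A planned comparison set fibroblasts with Postn and no Cd34 against fibroblasts with both Cd34 and Pdgfra and no Postn, of which there were 10 to 43 per library. In the Postn cells 6 of 24 chains were higher and 3 lower by edgeR, against 3.09% and 2.72% (5.82% in all) of 11346 genes. Col15a1 was lower, at 98.6, 100.9, 45.8 and 29.7 CPM against 287, 711, 239 and 174 CPM, by -2.11 ± 0.20 in log2 (edgeR adjusted p = 4.01e-22). Col8a2 at -3.71 ± 1.11 and Col4a1 at -0.64 ± 0.21 were also lower (edgeR adjusted p = 0.0177 and 0.0373), and Col17a1 at -2.02 ± 0.92 did not pass. Col8a2 rested on 1, 3, 1 and 0 UMIs in the double-positive cells, and leaving out acupuncture replicate 1, acupuncture replicate 2 or dysentery replicate 1 gave edgeR adjusted p values of 0.0851, 0.710 and 0.175. Col4a1 was at -0.14 (edgeR adjusted p = 0.934) without acupuncture replicate 2, had an edgeR adjusted p of 0.138 without dysentery replicate 2, and DESeq2 gave it an adjusted p of 0.708. Col5a3 was higher by 1.72 ± 0.49 and Col1a1 by 1.13 ± 0.25 (edgeR adjusted p = 0.0113 and 0.000225), and Col27a1 at 1.501 ± 1.05 and Col20a1 at 1.40 ± 1.48 did not pass. The other 4 higher chains were Col14a1, Col3a1, Col1a2 and Col5a2. In acupuncture replicate 1, the library with the most double-positive cells, Col1a1 held 15217 CPM in Postn cells and 15536 CPM in double-positive cells. Col1a2, Col14a1 and Col5a2 were also lower in its Postn cells, Col3a1 was near level at 16897 and 16802 CPM, and Col5a3 was higher. Col5a3 rested on 4, 4, 0 and 0 UMIs in the double-positive cells. DESeq2 called none of the 6 higher chains, and without dysentery replicate 2 edgeR called none of them, whereas Col15a1 was called throughout.

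Genes that make, export, cut, cross-link, bind or break down collagen were read in fibroblasts from 6 lists of 57 genes, 45 of which were tested. None of the 45 passed the edgeR test in either direction, against 2.05% of all genes tested. A positive log2 difference was found for 38, against 49.3% of all genes, and an unadjusted p under 0.05 for 18, against 19.7%. In the folding list, 16 of 17 were positive with a median of 0.37. The collagen chaperone Serpinh1 held 1252 and 1671 CPM against 891 and 695 CPM, 0.91 ± 0.23 in log2 (edgeR adjusted p = 0.126). The proline isomerase Ppib held 1039.6 and 1200.5 CPM against 910 and 954 CPM, and the prolyl hydroxylase subunit P4hb 486 and 525 CPM against 429 and 425 CPM.

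In the other lists the same order recurred for some genes and not for others. Of 6 export genes 5 were positive, with the cargo receptor Mia3 at -0.15 ± 0.13, Creb3l1 at 0.21 ± 0.12 and Tfg at 0.18 ± 0.12 in log2. Of 5 propeptide genes 4 were positive, with Pcolce, itself one of the gate markers, at 0.80 ± 0.24, Adamts2 at 0.10 ± 0.17 and Bmp1 at 0.24 ± 0.20. Of 7 cross-linking genes 6 were positive, with the collagen-binding Sparc at 0.90 ± 0.33, Loxl1 at -0.17 ± 0.21 and Loxl2 at 0.41 ± 0.15. Of 7 receptors 6 were positive, with the collagen receptor Ddr2 at -0.58 ± 0.17, Itgb1 at 0.30 ± 0.12 and Itga11 at 0.18 ± 0.15. Of 3 breakdown genes 1 was positive, with Mmp2 at -0.14 ± 0.14, Ctsk at 0.11 ± 0.20 and Mmp14 at -0.40 ± 0.17. The smallest adjusted p over the 6 lists was 0.117, for the glycosyltransferase Colgalt2.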

How the data were processed

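Single-cell libraries of fascia were counted with Cell Ranger 6.0.1 and STAR, per the submitters' processing notes, where mRatBN7.2 and, with no stated role, GRCh38.p13 are listed as builds. The deposited values are raw UMI counts per gene and cell. Cells with at least 300 genes, 500 UMIs and at most 20% mitochondrial UMIs were kept, and 2507 cells with the highest Scrublet scores (0.8% per 1000 cells) were removed. A cell joined the gate with the largest share of its markers detected, given 3 detected markers and a lead of 0.2. Counts were summed per library and gate and tested with edgeR 4.0.16 (TMM, filterByExpr with minimum count 10, quasi-likelihood, Benjamini-Hochberg over all genes), with the library as replicate and, between gates, as a block. Group tests needed 30 cells in every library and gate comparisons 10. DESeq2 1.42.0, other filters, gates and left-out libraries were alternatives. Errors after ± are standard errors of the log2 difference unless marked SD. The script was tested on simulated data. Intervals and floors (3 counts) cover counting error only. The members and lists were chosen with earlier results of these data known. Chains were named if they were the 2 most abundant of a class, passed a group test, had one of the 5 largest fibroblast differences, entered a ratio or had one of the 3 largest differences in a gate comparison. Pathway genes were the 3 most abundant of each list. Others were named after their values were seen.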

Additional observations from a re-analysis of the deposited data

Results flagged for a closer look

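2 chains differed between endothelium and fibroblasts in how they followed the groups, by the edgeR interaction test over 12915 genes, where 1.52% passed. For Col1a1 the log2 group difference was 0.52 in fibroblasts and -0.56 in endothelium. The tested difference of these differences was -1.06 ± 0.18 (adjusted p = 0.000103). For Col1a2 the group differences were 0.50 and -0.60, and the tested difference was -1.06 ± 0.18 (adjusted p = 0.000145). Both were called by DESeq2 and without each library in turn. Endothelial Col1a1 at 69.3 to 160.4 CPM lay within the 68.0 to 190 CPM of T cells, and the part of that background in the difference was not tested.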

How the results depend on the processing

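The count of fibroblast chains past the threshold was 0 of 26 and became 6 of 26 with DESeq2, against 6.19% of genes. It was 6 of 29 without the low-count filter, against 3.45%, and 1 of 26 with a gate margin of 0.4, against 2.88%. In Postn-positive cells it was 4 of 23, against 3.08%, and it also moved without dysentery replicate 1. In macrophages 1 of 15 became 2 of 15 with DESeq2, against 13.5% of genes, and 10 of 29 without the filter, against 17.0%. That count also moved without acupuncture replicate 1, acupuncture replicate 2 or dysentery replicate 2. In endothelium 1 of 10 became 0 of 7 with DESeq2 and 3 of 22 without the filter, against 1.58% and 1.96% of genes. It became 0 of 11 with doublets kept and 0 of 9 with a margin of 0.4, against 0.179% and 0.582%. Each left-out library moved it too. For macrophages against T cells 2 of 13 became 7 of 13 with doublets kept, against 55.2% of genes. With a margin of 0.4 it was 0 of 8, against 50.3%, and without 1 library 1 to 2, against 46.1% to 52.8%. For Postn cells 9 of 24 became 2 of 24 with DESeq2, against 660 of 11346 and 323 of 11126 genes. It was 7 of 22 and 9 of 24 without acupuncture replicates 1 and 2, against 361 of 10967 and 491 of 11134 genes. It was 5 of 24 and 2 of 22 without dysentery replicates 1 and 2, against 629 of 11330 and 493 of 11131 genes. The interaction count of 2 moved without each library. With 1 library left out, its log2 differences were -1.26 to -0.92 for Col1a1 and -1.20 to -0.90 for Col1a2. For endothelium against fibroblasts 21 of 23 became 19 to 20 without 1 library, against 34.8% to 38.4% of genes. With the replicate number as a block, the paired counts were 1 of 26 in fibroblasts, 4 of 10 in endothelium and 1 of 15 in macrophages. The shares of all genes were then 2.98%, 6.17% and 8.33%. Same-numbered libraries shared only a number, with correlations of 0.140, 0.112 and 0.129 in these gates. Leaving out 1 library reversed Col4a1 (-0.45 to 0.00095), Col4a2 (-0.28 to 0.17, with 0.09 without dysentery replicate 1) and Col17a1 (-0.57 to 0.24) in fibroblasts. The highest values came without acupuncture replicate 1 for the type IV chains and without replicate 2 for Col17a1. The acupuncture ratio of Col5a1 to Col5a2 was 0.0636 with doublets kept and 0.0639 with a margin of 0.4. Col4a1 to Col4a2 was 2.55 and 2.52 for acupuncture and 2.82 and 2.83 for dysentery under these settings. The cause of these changes was not tested. Among named genes 361 of the other values kept direction and side, 25 passed newly and 26 no longer passed. A mural comparison with 1 library left out, or with a margin of 0.4, could not be fitted. Few mural and double-positive cells limit those results.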
